A study of Mus musculus with 8 samples.

Results

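The creatine cycle genes were examined in inguinal white adipose tissue, a subcutaneous fat depot of the mouse, as 8 genes that make, import, charge and discharge creatine. They were chosen by name: the cytosolic creatine kinases Ckb and Ckm, the mitochondrial creatine kinases Ckmt1 and Ckmt2, the synthetic enzymes Gatm and Gamt, the transporter Slc6a8 and the phosphatase Alpl. Through their RefSeq accessions they matched 10 of the 55681 probes on each array, with 2 probes each for Ckb and Gamt. All 8 genes and all 10 probes passed the filter on dim probes, which kept probes that the scanner software marked as well above background in 4 or more of the 8 samples and left 14730 named genes. The 4 Senp2-aKO samples came from mice whose Senp2 gene is flanked by loxP sites in both copies (Senp2flox/flox) and which carry Adipoq Cre, a recombinase driven by the adiponectin gene and so active in fat cells. The 4 control samples carried Senp2flox/flox without Adipoq Cre. Both groups began a high-fat diet (58 kcal% fat with sucrose) at 8 weeks of age, ate it for 12 weeks and were kept at 22 to 24 °C. Senp2 encodes a protease that takes the small protein SUMO off other proteins, and the series asks whether its loss in fat cells makes white fat brown through C/EBPβ.

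Creatine kinases move a phosphate group between ATP and creatine, so that phosphocreatine serves as an energy store close to the sites of use. In striated muscle the cytosolic form is Ckm and the mitochondrial one Ckmt2, whereas Ckb and Ckmt1 are the forms of brain and many other tissues. In brown and beige fat of mice a futile creatine cycle turns over ATP and gives off heat without Ucp1: Ckb makes phosphocreatine at the mitochondria and Alpl, the tissue-nonspecific alkaline phosphatase, hydrolyses it again. Ckmt2 is known from brown fat as well as from striated muscle, and is counted here with the muscle forms because it is the sarcomeric mitochondrial form.

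The 8 arrays shared 1 slide and 1 scan. Senp2-aKO samples filled one row of the slide and controls the other, so that the slide row and the genotype cannot be told apart. Every log2 level is relative to the array's 75th percentile of processed signal, which was 324 to 382 on Senp2-aKO arrays and 408 to 446 on control arrays. The 10 adipocyte markers were well above background on every array, with a mean log2 level of 7.21 ± 0.19 in Senp2-aKO and 7.26 ± 0.14 in control samples (SD, n = 4 each). Of these markers 9 did not pass the limma test over all genes and 1 fell. It was Lep, named after its value was seen (log2 fold change -1.85, limma adjusted p = 0.00761). The deleted gene was at 82.8% of control (95% interval 73.3 to 93.6), with Senp2 levels of 2.18 ± 0.04 in Senp2-aKO and 2.45 ± 0.06 in control samples (SD, n = 4 each); the limma adjusted p over all genes was 0.0507. Its 1 probe need not lie in the removed part, and cells other than adipocytes keep the gene. One array, aKO 2, stood apart by a B and T lymphocyte marker mean of 2.59, against -1.73 to -1.14 on the other Senp2-aKO arrays and -1.53 to 0.18 on control arrays. Of 10 listed mammary epithelial and skin markers 4 passed the filter on dim probes, all keratin genes, and 3 of these rose. The mean of the 4 was -1.77 ± 0.70 in Senp2-aKO and -3.29 ± 0.12 in control samples (SD, n = 4 each). Krt18, named after its value was seen, did not pass and stood at 0.05 ± 2.08 and -2.76 ± 0.37 in these groups. The part of such cells in the results was not tested. The labels do not say that each sample is a separate animal, so the p-values measure the spread between these samples. In whole tissue, fewer cells of a type and less RNA per cell cannot be told apart.

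The muscle forms rose, and Ckb, Ckmt1 and Alpl did not pass the test. Ckm and Ckmt2 were the 2 of 8 genes that passed the limma test over all genes (Benjamini-Hochberg adjusted p under 0.05), where 14.4% of all genes tested passed, 7.29% as higher and 7.12% as lower. None of the 8 passed as lower, while 2 were lower at an unadjusted p under 0.05 in limma. Among all probes 9.83% passed. The median log2 fold change of the 8 was -0.08, beside -0.02 over all genes tested. In 2 genes every Senp2-aKO array lay above every control array and in another 2 every one lay below, Ckb and Gamt; groups that did not overlap made up 26.3% of all genes tested, 11.2% with Senp2-aKO above and 15.1% with it below.

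**Figure D1:**
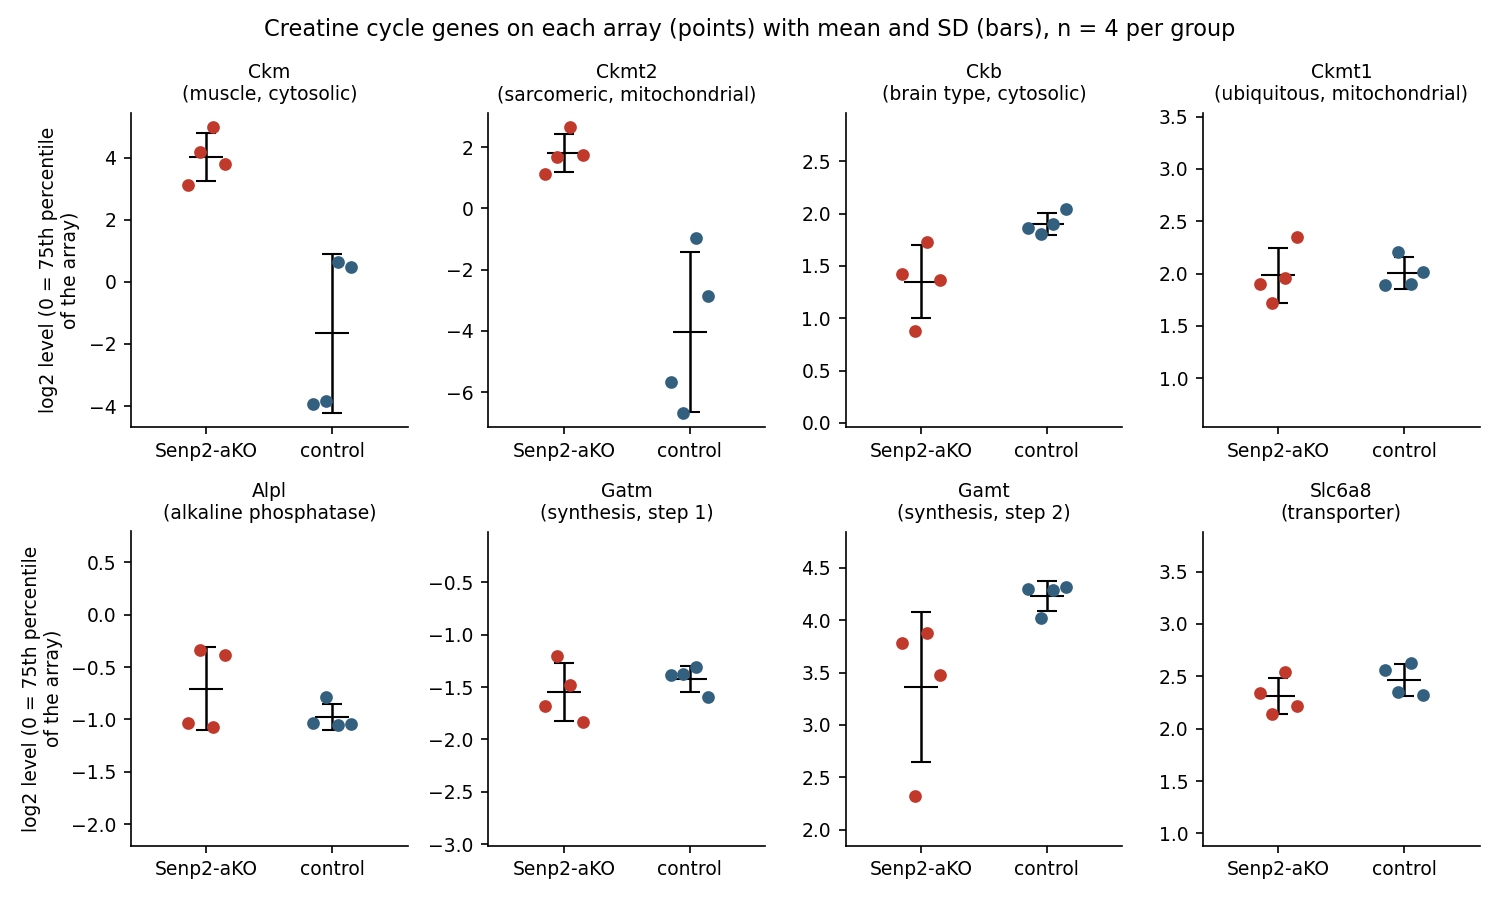
Log2 level of each creatine cycle gene (vertical axis, 0 is the 75th percentile of the array) on each Senp2-aKO array (red points) and control array (blue points), with the mean and SD as bars. The vertical axes differ between panels. Ckm and Ckmt2 are higher on all 4 Senp2-aKO arrays, Ckb and Gamt lower, and the other 4 genes overlap.

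Ckm, which regenerates ATP in the cytosol of muscle fibres, had log2 levels of 3.13, 4.19, 4.98 and 3.81 on Senp2-aKO arrays 1 to 4, against -3.92, -3.83, 0.65 and 0.47 on control arrays 1 to 4. As processed signal these were 2840 to 12100 units in Senp2-aKO fat and 26.9 to 700 units in control fat. The groups did not overlap, and the controls themselves split into a dim pair (1 and 2) and a brighter pair (3 and 4). The difference was 5.68 on the log2 scale (SE 1.15, limma adjusted p = 0.0184), a 51.4-fold rise with a 95% interval of 8.26 to 320.

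Ckmt2, which charges creatine in the intermembrane space of muscle mitochondria, had log2 levels of 1.14, 1.69, 2.65 and 1.75 on Senp2-aKO arrays 1 to 4, against -5.66, -6.68, -0.98 and -2.86 on control arrays 1 to 4. Again no Senp2-aKO array reached down to a control, and controls 1 and 2 were the dimmest. On those 2 arrays Ckmt2 was not well above background, so only 2 of 4 controls measured it. It rose by 5.85 on the log2 scale (SE 1.15, limma adjusted p = 0.0169), or 57.8-fold, with a 95% interval of 9.25 to 361. With a background model that adds an offset of 50 to every signal (normexp) its log2 fold change was 3.42 (adjusted p = 0.00258).

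Both calls ended on leaving out control 1, where the log2 fold change was 4.93 for Ckm (limma adjusted p = 0.0508) and 5.31 for Ckmt2 (adjusted p = 0.0528). Over the other 7 omissions they held, and the log2 fold changes over all 8 omissions ran from 4.93 to 6.45 for Ckm and from 4.97 to 6.87 for Ckmt2.

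**Figure D2:**
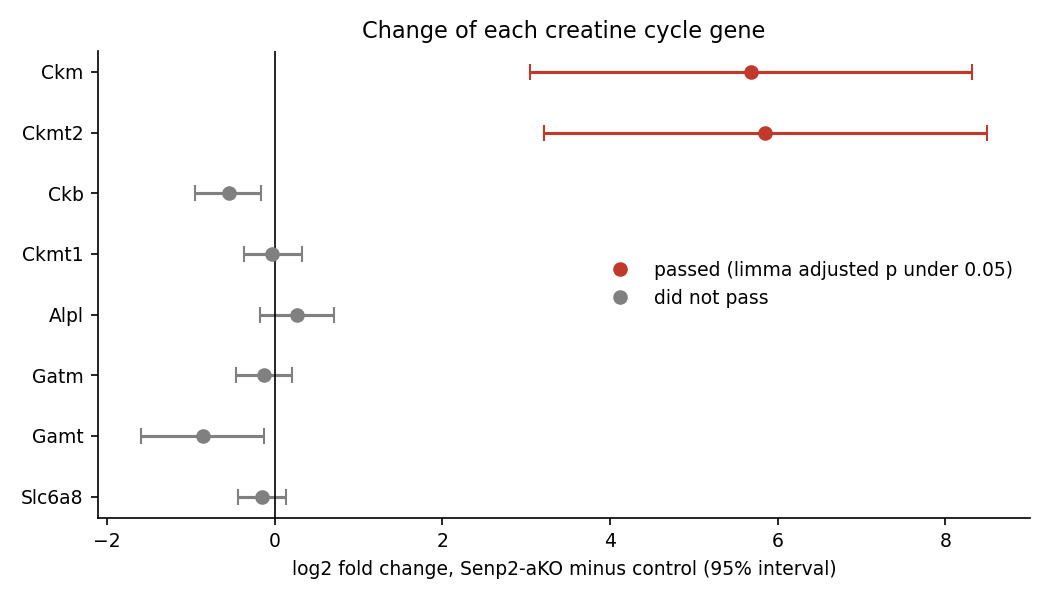
Log2 fold change, Senp2-aKO minus control, of each creatine cycle gene (points) with its 95% interval (bars), 4 arrays per group. Red marks Ckm (5.68) and Ckmt2 (5.85), which passed the limma test, and grey the 6 genes that did not, between -0.86 and 0.27.

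Other transcripts of skeletal muscle moved on the same arrays. Of 22 muscle markers, all measured, 17 rose and 5 did not pass, where 7.29% of all genes tested rose. The median log2 fold change of the markers was 3.89. Their mean log2 level was 2.37, 3.01, 3.70 and 3.23 on Senp2-aKO arrays 1 to 4, against -1.72, -1.70, 1.0 and 0.21 on control arrays 1 to 4, with controls 1 and 2 low as for Ckm. The brightest markers were Myl1, a myosin light chain (log2 fold change 2.36, SE 0.26), the troponin genes Tnnc2 and Tnni2 of fast fibres (4.80, SE 0.93 and 5.11, SE 1.05) and the skeletal actin Acta1 (3.72, SE 0.59). Their limma adjusted p-values were 0.00394, 0.0162, 0.0189 and 0.00925. The marker changes ran from 0.08 to 5.66. With the offset background model the median of the markers was 3.31, beside 4.73 for Ckm and 3.42 for Ckmt2.

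Ckm exceeded the muscle marker mean by 0.95 ± 0.34 on Senp2-aKO arrays and by -1.11 ± 1.25 on control arrays on the log2 scale (SD, n = 4 each), and this difference of 2.06 was at the smallest p the exact permutation test allows (two-sided p = 0.0286, adjusted p = 0.0286 over 4 such differences). Ckmt2 against the same mean stood at -1.27 ± 0.18 on Senp2-aKO arrays and -3.49 ± 1.28 on control arrays, a difference of 2.22 (SD, n = 4 each, exact permutation p = 0.0286, adjusted p = 0.0286). The offset background model brought the difference for Ckmt2 to 0.33 (exact permutation p = 0.171). The marker mean includes the 5 that did not pass, which were named after their values were seen: the myosins Myh1 and Myh2 at 2.74 and 2.49, and Myh7, Tnni1 and Tnnt1 of slow fibres at 0.89, 0.60 and 0.08. In the main fit no marker rose by more than Ckm (5.68) or Ckmt2 (5.85). The value for Ckmt2 rests in part on controls 1 and 2, where it was not well above background. With the offset background model Ckmt2 rose by 3.42, close to the marker median in that model. Tcap at 5.66 and Tnnt3 at 5.60, also named after their values were seen, came close to Ckm. The difference from the mean thus does not set Ckm or Ckmt2 apart from each muscle transcript. A marker that rose by more than most would also stand above this mean, so these p-values are no separate support.

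With the muscle marker mean as a covariate neither muscle form passed. The log2 fold change was then -0.67 for Ckm (SE 0.70, limma adjusted p = 0.744) and -0.52 for Ckmt2 (SE 0.67, adjusted p = 0.790), with slopes of 1.75 and 1.76 on the marker mean. That mean was higher on every Senp2-aKO array than on any control, so covariate and group overlap in this fit. In it 1 gene of 14730 passed, and at an unadjusted p under 0.05 the limma fit had 941 genes higher and 727 lower.

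Within the Senp2-aKO group the order of the arrays by muscle form was not that by Ucp1, which uncouples brown fat mitochondria. Ckm, Ckmt2 and the marker mean were each highest on aKO 3 and lowest on aKO 1. Ucp1 had log2 levels of 5.04, 5.36, 4.43 and 6.65 on Senp2-aKO arrays 1 to 4, lowest on aKO 3, against -1.11, 0.46, -1.52 and -1.78 on control arrays 1 to 4. Among controls, Ckm and Ckmt2 were highest on control 3 and Ucp1 on control 2.

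**Figure D3:**
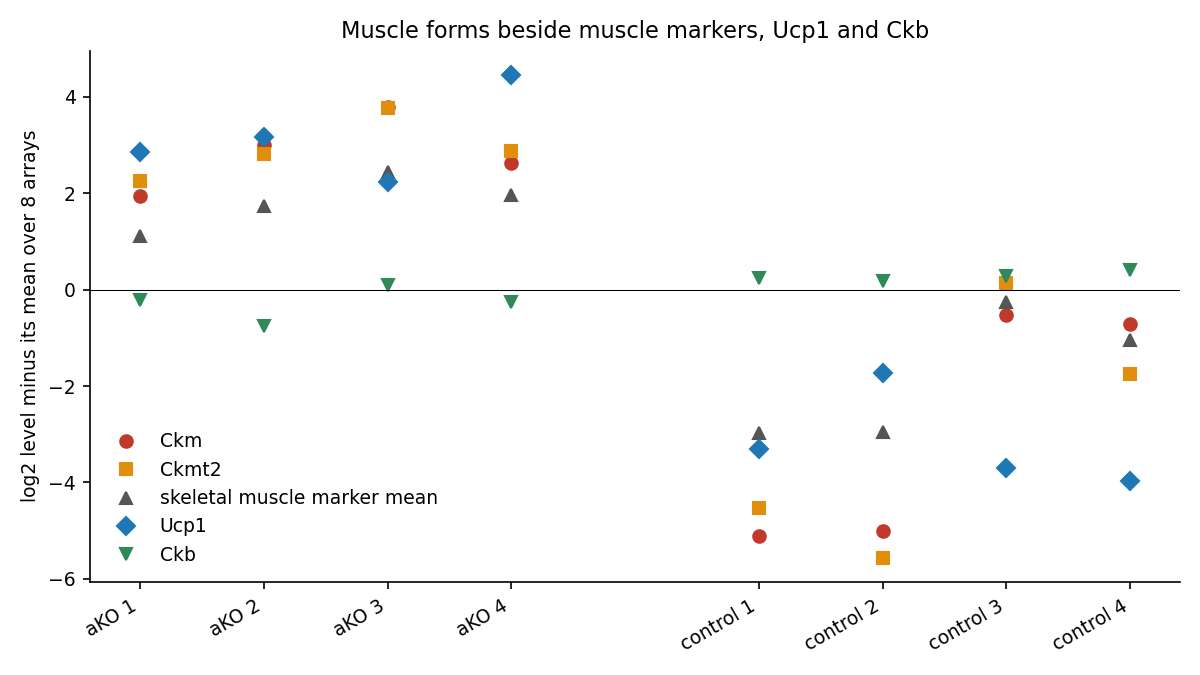
Log2 level minus its mean over the 8 arrays (vertical axis) on each array (horizontal axis) for Ckm, Ckmt2, the mean of 22 skeletal muscle markers, Ucp1 and Ckb. Ckm, Ckmt2 and the marker mean peak on aKO 3, where Ucp1 is lowest of the Senp2-aKO arrays, and lie lowest on controls 1 and 2. Ckb is below 0 on 3 Senp2-aKO arrays and above it on the other arrays.

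Ckb, the kinase of the futile creatine cycle, had log2 levels of 1.42, 0.88, 1.73 and 1.37 on Senp2-aKO arrays 1 to 4, against 1.86, 1.80, 1.90 and 2.04 on control arrays 1 to 4. Every Senp2-aKO array was below every control, as in 15.1% of all genes tested, with aKO 2 the lowest and aKO 3 close to the controls. Its log2 fold change of -0.55 (SE 0.17), or 68.3% of control (95% interval 51.9 to 89.7), did not pass over all genes (limma adjusted p = 0.0667, unadjusted p = 0.0121). The second Ckb probe gave -0.49 (SE 0.20, adjusted p = 0.154 over all probes), and there aKO 3 at 0.81 overlapped control 1 at 0.80. The Ckb test passed without aKO 3 (log2 fold change -0.68, limma adjusted p = 0.0273), and its value without aKO 2, the array rich in lymphocyte markers, was -0.39 (adjusted p = 0.0504).

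Ckmt1, the mitochondrial kinase outside striated muscle, had log2 levels of 1.90, 1.72, 1.96 and 2.35 on Senp2-aKO arrays 1 to 4, against 1.89, 2.21, 1.90 and 2.02 on control arrays 1 to 4. The groups overlapped throughout. The log2 fold change was -0.03 (SE 0.15, limma adjusted p = 0.924), and its 95% interval of -0.37 to 0.32 leaves room for a change of 1.25-fold upwards.

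Alpl, the phosphatase that discharges phosphocreatine, had log2 levels of -1.03, -0.34, -1.07 and -0.38 on Senp2-aKO arrays 1 to 4, against -1.03, -0.79, -1.05 and -1.04 on control arrays 1 to 4. Senp2-aKO arrays 2 and 4 were above every control, and arrays 1 and 3 lay at the control level. The ratio of 1.21 (95% interval 0.891 to 1.64, limma adjusted p = 0.360) was within the spread of the samples. Alpl is also a transcript of neutrophils and small vessels. Of 5 measured neutrophil markers 0 passed, and their mean was 1.51 to 3.34 on Senp2-aKO arrays, highest on aKO 2, against 1.32 to 1.86 on control arrays; its part in the Alpl values was not tested.

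Genes of brown and beige fat rose on the same arrays, where 7.29% of all genes tested passed as higher. Of 20 measured brown and beige markers 12 rose, 1 fell (S100b, by 1.39, named after its value was seen) and 7 did not pass, with a median log2 fold change of 1.25, and of the 12 markers that are not abundant in muscle 6 rose and 6 did not pass. On leaving out 1 array the counts that rose were 8 to 12 of the 20 (8 without control 1) and 4 to 6 of the 12 (4 without aKO 1, aKO 4, control 1 or control 3). The brightest of the 12 were Cidea, a lipid droplet protein that rose by 2.15 (SE 0.49, limma adjusted p = 0.0267), Tnfrsf9, which rose by 0.60 (SE 0.13, adjusted p = 0.0220), and Ucp1, which rose by 6.36 (SE 0.59, adjusted p = 0.00329). The next, Kcnk3, a potassium channel, gave -0.19 (SE 0.25, adjusted p = 0.643).

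Each muscle form was set against its counterpart of brain and many other tissues within the same compartment. In the cytosol, the log2 level of Ckm minus that of Ckb averaged 2.68 ± 0.76 on Senp2-aKO arrays and -3.56 ± 2.48 on control arrays, a difference of 6.24 (SD, n = 4 each, exact permutation p = 0.0286, adjusted p = 0.0286 over the 4 differences tested). In mitochondria, Ckmt2 minus Ckmt1 averaged -0.17 ± 0.66 on Senp2-aKO arrays and -6.05 ± 2.70 on control arrays, a difference of 5.88 (SD, n = 4 each, exact permutation p = 0.0286, adjusted p = 0.0286). With the offset background model the mitochondrial difference was 3.44 (exact permutation p = 0.0286). In both pairs all 4 Senp2-aKO arrays lay above all 4 controls, and the muscle form changed more than its counterpart. The groups were already apart in Ckm and Ckmt2 by more than Ckb and Ckmt1 varied. That separation fixed these p-values, which are no separate support. Since different probes bind with different strength, these averages say nothing about which form was the more abundant.

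The start regions of these kinases are shown because Ckm and Ckmt2 moved together and Ckb did not. RefSeq sequences of build GRCm38.p6, from 250 bases before to 50 after a start that the sequence table gives, were matched for 7 of the 8 genes. For Ckmt2 that start lies within the gene as annotated, downstream of its outermost end. Shown are Ckm at chr7:19410844-19411143 (plus strand), Ckmt2 at chr13:91876836-91877135 (minus strand) and Ckb at chr12:111672289-111672588 (minus strand). Capitals mark E-boxes (CANNTG, the letters bound by myogenic factors such as MyoD), the MEF2 box and the letters TATAAA, searched on both strands.
Ckm: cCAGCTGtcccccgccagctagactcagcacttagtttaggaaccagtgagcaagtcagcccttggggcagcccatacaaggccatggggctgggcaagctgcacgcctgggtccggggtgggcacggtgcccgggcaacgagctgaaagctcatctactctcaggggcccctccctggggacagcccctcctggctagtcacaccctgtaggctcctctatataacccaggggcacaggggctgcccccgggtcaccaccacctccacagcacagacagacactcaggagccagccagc
Ckmt2: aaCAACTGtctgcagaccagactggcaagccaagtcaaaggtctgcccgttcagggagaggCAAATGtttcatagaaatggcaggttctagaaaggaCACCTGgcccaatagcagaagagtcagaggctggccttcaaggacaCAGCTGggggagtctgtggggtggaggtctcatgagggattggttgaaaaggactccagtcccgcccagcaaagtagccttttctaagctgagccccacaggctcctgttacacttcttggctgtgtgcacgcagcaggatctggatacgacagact
Ckb: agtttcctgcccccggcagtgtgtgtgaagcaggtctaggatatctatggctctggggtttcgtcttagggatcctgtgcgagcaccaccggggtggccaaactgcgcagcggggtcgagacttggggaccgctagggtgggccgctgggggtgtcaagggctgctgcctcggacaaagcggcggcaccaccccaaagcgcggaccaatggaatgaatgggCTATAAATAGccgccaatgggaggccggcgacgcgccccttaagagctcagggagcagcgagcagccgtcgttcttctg
The Ckm window held 1 E-box, the Ckmt2 window 4 and the Ckb window 0. At least 1 E-box was found in 72.3% of 32851 start regions of this length and at least 4 in 6.49%. The Ckb window alone of the 3 held a MEF2 box, found in 0.557% of start regions. This box begins at -29 from the start and overlaps the letters TATAAA, which begin at -28 and were found in 13.6%. Sites outside these windows were not searched. The letters TTGCNNAA of the C/EBP family (10.8% of start regions) and the CArG box bound by SRF (1.63%) were in none of the 3.

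No gene of creatine synthesis or uptake passed the test. Gamt, which methylates guanidinoacetate to creatine, had log2 levels of 3.78, 2.32, 3.88 and 3.48 on Senp2-aKO arrays 1 to 4, against 4.30, 4.02, 4.29 and 4.32 on control arrays 1 to 4. All Senp2-aKO arrays were below all controls, as in 15.1% of all genes tested, and aKO 2 was far below the other 3. The mean was 54.9% of control (95% interval 32.9 to 91.5; log2 fold change -0.86, SE 0.32), which did not pass over all genes (limma adjusted p = 0.107, unadjusted p = 0.0268). The second Gamt probe gave -0.94 (SE 0.31, adjusted p = 0.0896 over all probes), also without overlap.

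The Gamt value depended on aKO 2, the array with the high lymphocyte marker mean. Without it the log2 fold change was -0.52 and passed (SE 0.13, limma adjusted p = 0.0330). With the lymphocyte marker mean as a covariate it was -0.77 (adjusted p = 0.0336), and that fit also called Ckb at -0.51 (adjusted p = 0.0293).

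Gatm, which makes guanidinoacetate from arginine and glycine, had log2 levels of -1.68, -1.20, -1.48 and -1.83 on Senp2-aKO arrays 1 to 4, against -1.39, -1.38, -1.31 and -1.60 on control arrays 1 to 4. The groups overlapped, and the level of 91.6% of control (95% interval 72.7 to 115) did not pass (limma adjusted p = 0.588). Slc6a8, which carries creatine into the cell, had log2 levels of 2.34, 2.14, 2.54 and 2.22 on Senp2-aKO arrays 1 to 4, against 2.56, 2.35, 2.63 and 2.32 on control arrays 1 to 4. It stood at 89.8% of control (95% interval 73.9 to 109) with overlapping groups (limma adjusted p = 0.419).

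Some genes that handle the substrates and methyl donors of creatine synthesis rose. Of the 16 measured genes of arginine and glycine handling and methyl transfer that are reported here, 4 rose and 12 did not pass. Among all genes tested 7.29% passed as higher. The median log2 fold change of the 16 was 0.03. Shmt1, which exchanges serine and glycine, rose by 0.58 (SE 0.09, limma adjusted p = 0.00881). Mat2a, which makes the methyl donor S-adenosylmethionine, rose by 0.57 (SE 0.12, adjusted p = 0.0220), the arginine transporter Slc7a1 by 0.56 (SE 0.15, adjusted p = 0.0444) and Gldc of glycine breakdown by 0.50 (SE 0.11, adjusted p = 0.0264). Nearest to passing were Ahcy, which clears the by-product of methylation, at 0.37 (adjusted p = 0.0657) and Shmt2 at -0.22 (adjusted p = 0.169). The call of Shmt1 held on leaving out any 1 array, but ended with the mean of all its kept probes in place of the brightest (log2 fold change 0.24, adjusted p = 0.130). Quantile normalisation ended those of Mat2a (0.41, adjusted p = 0.0675) and Slc7a1 (adjusted p = 0.0504), and that of Slc7a1 also ended with no filter on background (0.0712) and with the percentile over probes detected on all arrays (0.0507). On leaving out 1 array, the call of Mat2a ended without control 1, 3 or 4 (adjusted p up to 0.0645), that of Gldc without aKO 1, aKO 4 or control 1, 2 or 3 (up to 0.0761), and that of Slc7a1 in every omission but that of aKO 1 (up to 0.104). The number that rose was 1 without control 1 or 3 and 2 without aKO 4, control 2 or control 4.

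In the handling of adenine nucleotides and phosphate, 4 of 18 measured genes rose, 0 fell and 14 did not pass. Over all genes tested 7.29% rose. The median log2 fold change of the 18 was 0.21, and at an unadjusted p under 0.05 limma had 6 higher and 0 lower. Ampd1, the AMP deaminase of skeletal muscle, rose by 5.09 (SE 1.0, limma adjusted p = 0.0167), with levels of 0.00 ± 0.63 in Senp2-aKO and -5.09 ± 2.23 in control samples (SD, n = 4 each). It was well above background on 6 of 8 arrays, and the offset background model gave 2.49 (adjusted p = 0.00354). Its relative Ampd3 rose by 0.88 (SE 0.22, adjusted p = 0.0356), the mitochondrial adenylate kinase Ak4 by 0.76 (SE 0.20, adjusted p = 0.0393) and the phosphate transporter Slc20a2 by 0.58 (SE 0.11, adjusted p = 0.0163). Nearest to passing were the cytosolic adenylate kinase Ak1 at 0.76 (adjusted p = 0.0632) and the ADP/ATP carrier Slc25a4 at 0.43 (adjusted p = 0.0829), both abundant in muscle. The calls of Ampd1 and Slc20a2 ended without control 1 (adjusted p = 0.0510 and 0.0569). The number that rose was 0 without control 1, 2 without aKO 1, aKO 4, control 2 or control 4, and 8 without aKO 2. The calls of Ak4 and Ampd3 ended in 7 and 6 of the 8 omissions (up to 0.108 and 0.0844), and with no filter on background (0.0638 and 0.0587). The offset background model gave 0.48 for Ak4 and 0.51 for Ampd3.

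Among 10 measured regulators of creatine kinase and mitochondrial genes 4 rose and 0 fell (median log2 fold change 0.13). The share of all genes tested that rose was 7.29%. At an unadjusted p under 0.05, limma had 4 of the 10 regulators up and 2 down. The 4 that rose were Ppargc1a, a coactivator of mitochondrial genes (log2 fold change 1.51, SE 0.30, adjusted p = 0.0178), Mef2a, a factor of muscle genes (1.04, SE 0.17, adjusted p = 0.00938), Esrrb, an orphan nuclear receptor (1.0, SE 0.27, adjusted p = 0.0462), and Cebpb, which encodes C/EBPβ (0.79, SE 0.19, adjusted p = 0.0332). Esrrg and Mef2c did not pass (-0.82 and -0.69, adjusted p = 0.0664 and 0.121). The myogenic factors Myod1 and Myog did not pass the filter on dim probes. Without that filter Myod1 and Myog were added and 12 regulators were tested (median log2 fold change 0.36). Of these, 4 passed as higher and 6 were higher at an unadjusted p under 0.05 in limma. Those 4 were not the 4 named above: Ppargc1a and Mef2a passed (limma adjusted p = 0.0315 and 0.0173), but Cebpb and Esrrb did not. The others that passed had not been called with the filter, where Myod1 and Myog were too dim to be tested. With the mean of all its kept probes in place of the brightest, Mef2a had a log2 fold change of 0.45 (limma adjusted p = 0.0471). The calls of Cebpb and Esrrb ended with no filter on background (adjusted p = 0.0550 and 0.0738), and that of Esrrb also with quantile normalisation (0.0705). The offset background model gave 0.57 for Esrrb. The call of Mef2a held in every omission, that of Ppargc1a ended without control 1 (adjusted p = 0.0510), and those of Cebpb and Esrrb ended in 5 and 6 of the 8 omissions (up to 0.0892 and 0.104). The number that rose was 1 without control 1 and 2 without aKO 4, control 3 or control 4. The muscle marker mean was higher on the same Senp2-aKO arrays, and with it as a covariate 0 genes of these 3 lists passed in limma, while at an unadjusted p under 0.05 it had 2, 1 and 2 of them up and 0 down. Of the 12 genes that rose, 3 had log2 fold changes well below those without the covariate. They were -0.43 for Ampd1 (SE 0.60), 0.03 for Ak4 (SE 0.36) and 0.39 for Esrrb (SE 0.60). The other 9 ran from 0.48 for Gldc to 2.35 for Ppargc1a and were as large or larger for all but Gldc and Ampd3 (0.74). Errors were wider with the covariate for all but Ampd1. Covariate and group overlap in this fit, and the part of muscle in these genes was not tested.

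**Figure D4:**
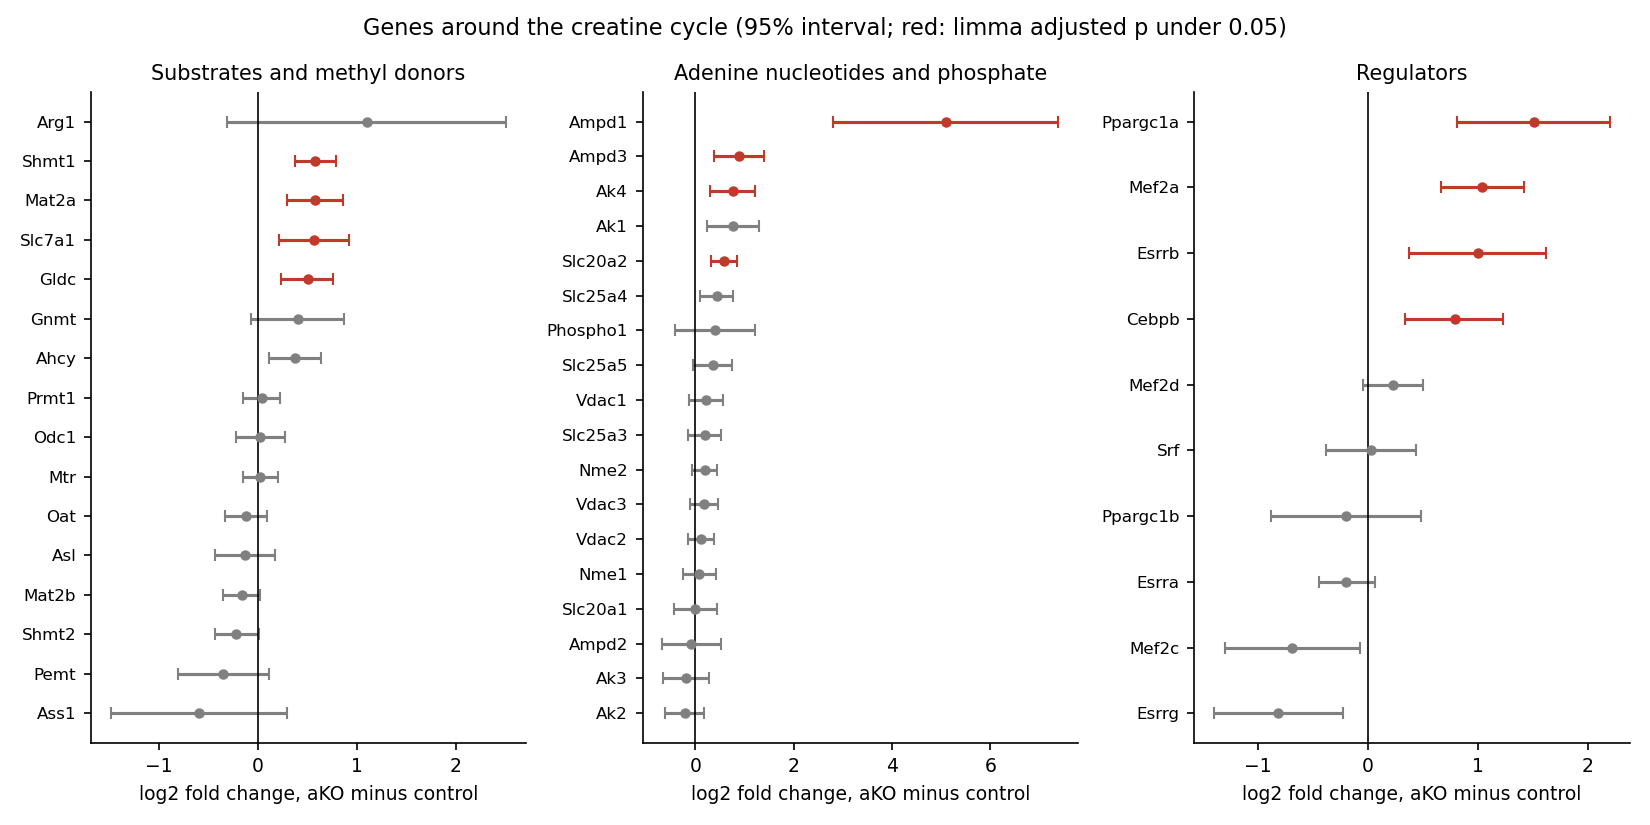
Log2 fold change, Senp2-aKO minus control, with 95% intervals for 44 genes around the creatine cycle in 3 lists, sorted by size within each panel; the horizontal axes differ. Red marks the 12 genes that passed the limma test, of which Ampd1 lies far from the rest at 5.09.

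For each of the 8 genes the 3 most similar profiles among the other 14722 genes were taken by the root mean square difference of log2 levels over the 8 arrays, after each gene was centred on its own mean. Nearest to Ckm were Tnnt3, the fast troponin T (0.11), Tcap, a protein of the sarcomere's Z-disc (0.22), and Pgam2, the phosphoglycerate mutase of muscle (0.25), while Ckm itself varied by 3.28 around its mean. Nearest to Ckmt2 were Actn3 of the fast fibre Z-disc (0.40), Pgam2 (0.46) and Tnnt3 (0.47), against its own spread of 3.36. Ckb, with a spread of 0.36, was nearest to Ssx2ip (0.03), Cpne2 (0.06) and the zinc transporter Slc39a13 (0.06). Gamt, with a spread of 0.62, was nearest to Cavin3, a coat protein of caveolae (0.09), the natriuretic peptide clearance receptor Npr3 (0.12) and Cyb5b (0.12). Ckmt1, Alpl, Gatm and Slc6a8 varied by 0.16 to 0.29, and their nearest profiles differed by 0.06 to 0.13, so that little of their small variation separates one neighbour from another. The nearest genes were Rep15 for Ckmt1, Cyp3a13 for Alpl, Slc16a6 for Gatm and Gng5 for Slc6a8.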

How the data were processed

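From 0.5 µg of total RNA per sample, Cy3-labelled cRNA was made for Agilent 1-colour arrays, per the labels' protocols. Feature Extraction 11.5.1 from Agilent read the scans, per the submitters' processing notes, and it subtracted background and trends within each array, per the file headers. The authors deposited its spot values as intensity (processed signal, plus the median pixel values of spot and local background), unscaled across arrays. Its deposited flags, marking outliers and spots above background, have the unit other. A normalised matrix of 8 sample columns, which match no label, was not used here.

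Log2 processed signals were taken relative to the 75th percentile of each array and averaged over the spots of a probe without outlier spots, which left out 269 probes. Of 55681 probes, 27656 were named through RefSeq accessions (GRCm38.p6). Of 30508 probes kept, the brightest stood for each of 14730 genes. The test was limma 3.58.1 under R 4.3.3 (Benjamini-Hochberg over all genes; SE and 95% intervals from its moderated variances). Single values were compared with a two-sided exact permutation test over 70 assignments, whose smallest p is 0.0286. Fold changes are Senp2-aKO over control. The number of arrays limits the precision.

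Genes named were the 8 members, Senp2, up to 6 called and 2 uncalled genes of each of 3 pathway lists, up to 4 bright genes of each marker list and the 3 nearest profiles. One gene of the list on substrates and methyl donors is not reported here, and the counts of that list leave it out. The members and lists were chosen with earlier results of these data known. The test was checked on simulated data. Alternatives were other normalisations, background models and filters, the mean of a gene's probes, array weights, 2 covariates, replicate number as a block and leaving out each array. Replicate numbers, which are also slide columns, are not stated to pair the samples and were not used as pairs in the main fit.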

Additional observations from a re-analysis of the deposited data

Results flagged for a closer look

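In control 2, 2 genes stood apart from the other 3 controls by Dixon's criterion for 4 samples, which chance meets in about 1 of 20 groups. Alpl had a log2 level of -0.79 there, against -1.05 to -1.03 in the other controls, a gap of 0.921 of the range. Gamt had 4.02, against 4.29 to 4.32, a gap of 0.917 of the range. The cause was not tested.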

How the results depend on the processing

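Of the 8 creatine cycle genes 2 passed as reported. The number was 1 where only probes above background on all 8 arrays were kept (Ckmt2 was not tested there), 4 with array weights and 4 with the lymphocyte covariate (Ckb and Gamt added as lower in both), 0 with the muscle covariate (0 also at an unadjusted p under 0.05 in limma), and 0 to 3 on leaving out 1 array. With the muscle covariate the log2 fold changes of Ckm, Ckmt2 and Ampd1 turned to -0.67, -0.52 and -0.43. Ckmt1 changed sign with array weights (0.11), the muscle covariate (0.05) and the lymphocyte covariate (0.01), and ran from -0.15 to 0.06 on leaving out 1 array. Of all genes 2123 passed as reported, 3763 with array weights, 3508 with the lymphocyte covariate, 1 with the muscle covariate and 714 to 2828 on leaving out 1 array. Of all probes 2999 passed as reported, 4596 with the offset background model, 1444 with no filter on background, 5625 with array weights, 4860 with the lymphocyte covariate, 0 with the muscle covariate in limma (at an unadjusted p under 0.05, 2137 higher and 1094 lower) and 840 to 3866 on leaving out 1 array. On leaving out 1 array, Ckm minus Ckb differed by 5.49 to 7.0, Ckmt2 minus Ckmt1 by 4.93 to 6.94, Ckm minus the muscle mean by 1.69 to 2.51 and Ckmt2 minus the muscle mean by 1.73 to 2.73, with exact permutation p-values of 0.0286 to 0.0571. The offset background model gave 0.33 for the last of these. The causes were not tested.

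The replicate numbers are not stated to pair samples, and the correlation of deviations between same-numbered samples across genes was -0.0167, -0.0754, 0.142 and 0.107. With replicate number as a block 1294 genes and 1657 probes passed, and Ckm and Ckmt2 still passed (limma adjusted p = 0.0274 and 0.0244). The block ended the calls of Mat2a, Slc7a1, Gldc, Ampd3, Ak4 and Cebpb (adjusted p 0.0567, 0.0567, 0.0693, 0.0914, 0.107 and 0.0923) and called Esrrg as lower (0.0211). The 4 paired differences stayed at 6.24, 5.88, 2.06 and 2.22, with an exact permutation p of 0.125, the smallest that 4 pairs allow. Signal over background limits Ckmt2, which 2 of 4 controls did not measure.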
